A study of Homo sapiens with 6 samples.

Results

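The 8 genes described are targets of KMT2A fusion proteins that lie outside the HOX clusters. They are MEIS1, PBX3, MEF2C, RUNX2, JMJD1C, CDK6, ZEB2 and LAMP5. They were chosen by name as known targets in KMT2A-rearranged leukemia, with earlier results of these data known, and were read from the rows of the count table that carry these names, 8 of 35410 listed genes. Expression was profiled by MACE-Seq, which sequences the 3′ ends of mRNA, in 6 libraries, 3 biological replicates per line. The parental line SEM, an established line of human B cell precursor leukemia, carries the KMT2A::AFF1 fusion. SEM::EGR3 holds a transgene for the zinc finger transcription factor EGR3 that doxycycline induces, whereas SEM::mock holds the empty vector. Both lines received 1 µg/mL doxycycline, and RNA was extracted 48 h later. Each vector was studied in 1 line, and whether the lines are clonal is not given in the sources used here. Differences between the lines and effects of EGR3 cannot be told apart in this design.

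KMT2A is a histone methyltransferase of the trithorax family that keeps developmental genes active. In the fusion with AFF1, its DNA-binding part is joined to a component of the transcription elongation machinery, and the fusion protein maintains the transcription of the genes it occupies. HOXA genes with their cofactor MEIS1 are the best known targets, and regulators of transcription, chromatin and the cell cycle are further targets in these leukemias.

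Depth ranged from 5286115 to 6181388 counts per SEM::mock library and from 7293092 to 15106018 per SEM::EGR3 library. The transgene check gave 6 to 10 counts of EGR3 per SEM::mock library and 4952 to 9768 per SEM::EGR3 library. Markers of B-lineage cells went against the proB label of SEM::mock. Of 14 B-lineage markers, 11 had at most 3 counts in each SEM::mock library and 6 of these had none, EBF1 and IGHM among them. Their summed level was 2.65 to 5.88 counts per 1000000 counts (CPM) in SEM::mock and 673 to 707 CPM in SEM::EGR3, where PAX5, IGHM and EBF1 were the most abundant and BLNK, RAG2 and DNTT had at most 3 counts per library. Transcripts of red cell precursors went against the proB label in both lines, and the identity of the cells was not tested. The 15 erythroid markers summed to 5061 to 5370 CPM in SEM::mock and to 6247 to 6493 CPM in SEM::EGR3. AHSP and the globin gene HBE1 were at or near 0 in both lines. HBG2, HBZ and HBA1, which encode globins, were the most abundant in SEM::mock. In SEM::EGR3 the globin genes HBZ, HBA1 and HBA2 led, with means of 2117, 1497 and 1080 CPM. The mean of HBG2 was 2343 CPM in SEM::mock and 949 CPM in SEM::EGR3. Of the 13 erythroid markers tested, 3 were higher and 10 lower in SEM::EGR3. The 7 listed megakaryocyte markers, led by NFE2, GFI1B and ITGA2B, summed to 289 to 300 CPM in SEM::mock against 194 to 211 CPM in SEM::EGR3, and of 6 tested 3 were higher and 3 lower. The 11 listed myeloid markers, led by LYZ, CD33 and CEBPA, summed to 297 to 307 CPM against 236 to 238 CPM, and MPO had no count in SEM::mock. Of 6 tested, LYZ and CD33 were lower, CEBPA, ITGAM and PRTN3 were higher, and CSF3R did not pass the test. The 10 T cell markers summed to 59.6 to 64.9 CPM against 13.5 to 15.0 CPM, a fall that is mostly that of CD3D. Of 4 tested, CD3D and CD3E were lower, while CD4 and CD2, at no more than 1 count per SEM::mock library, were higher. These lists move with the comparison of the lines, and their part in the results on the fusion targets was not tested. In bulk RNA, fewer cells of a type and less RNA per cell cannot be told apart.

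**Figure D1:**
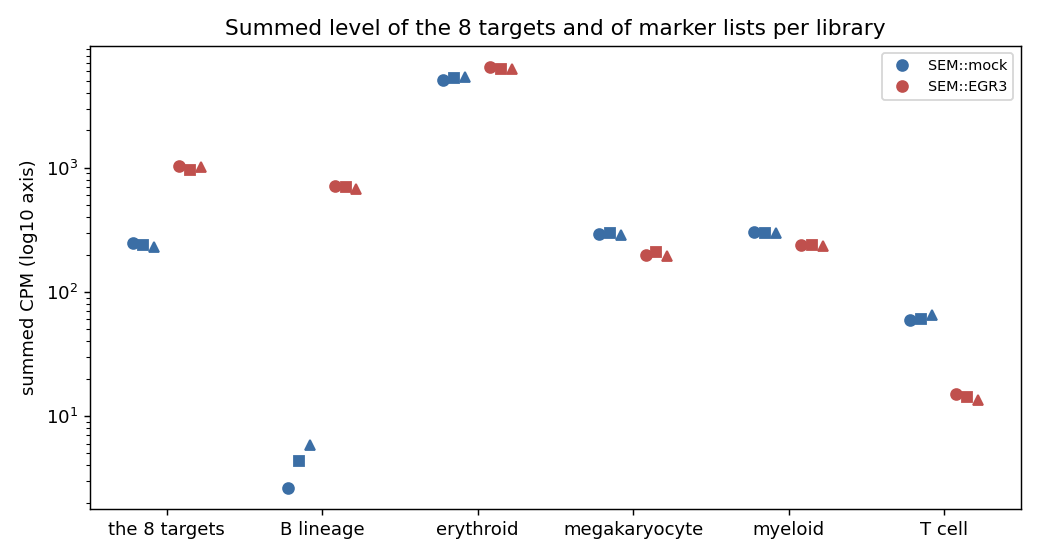
Summed level of the 8 KMT2A fusion targets and of the 5 marker lists in each library, in CPM on a log10 axis. Points are single libraries, with the symbol giving the replicate (circle 1, square 2, triangle 3) and the colour the line. The fusion targets sum to 230 to 247 CPM in SEM::mock and to 962 to 1034 CPM in SEM::EGR3.

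All 8 fusion targets were higher in SEM::EGR3, with ZEB2 close to the threshold and not called under 3 of 12 alternative fits, nor where a log2 fold change of at least 1 was required. The call was an adjusted p under 0.05 in the quasi-likelihood test of edgeR, adjusted by Benjamini-Hochberg over 15465 tested genes. By the same rule, 68.5% of all tested genes were called, 36.5% as higher and 32.0% as lower. The change had a log2 fold change of at least 1 in 7 of the 8 members, against 16.7% of all tested genes, and of at least 2 in 5 of the 8, against 9.21%. Since the members were chosen with earlier results known, these shares are a description. The median log2 fold change of the members was 2.96, or 2.50 with LAMP5 set to its lower bound, and that of all tested genes was 0.03. All 3 SEM::EGR3 libraries lay above all 3 SEM::mock libraries for each of the 8 members, as for 37.5% of the tested genes, and 70.1% of the tested genes had no overlap in either direction. The filter on low counts passed 8 of 8 members, PBX3 and LAMP5 only through the SEM::EGR3 libraries, where they are high. With at least 10 counts required in every library, PBX3 and LAMP5 were not tested and the 6 other members were called higher, against 33.2% of the genes tested under that filter. The exact permutation test of the 3 against 3 libraries gave a two-sided p of 0.1 for each member, the smallest it allows.

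**Figure D2:**
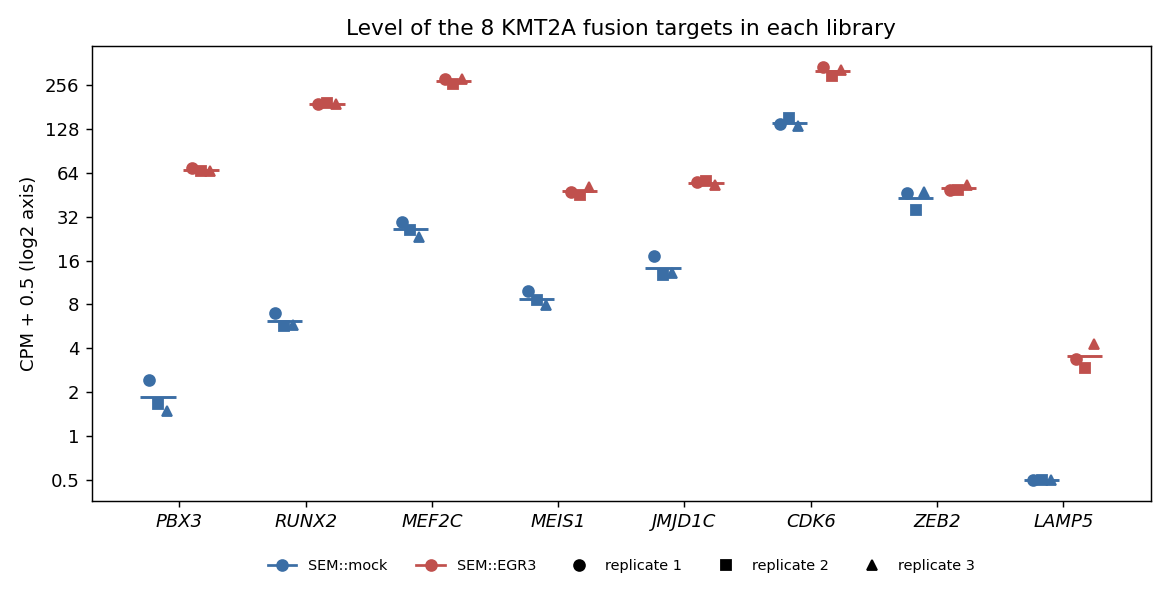
Level of each fusion target in each library, as CPM + 0.5 on a log2 axis, with horizontal lines at the mean of the 3 libraries of a line. SEM::EGR3 lies above SEM::mock for each gene, by the widest gap in PBX3 among genes detected in both lines, whereas the ZEB2 libraries almost touch and LAMP5 is at 0 in SEM::mock.

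MEIS1 and PBX3 encode homeodomain proteins of the TALE class that bind DNA together with HOX proteins. MEIS1 (ENSG00000143995, chromosome 2, 66433452 to 66573869, plus strand) was read with 53, 48 and 38 counts in replicates 1 to 3 of SEM::mock. SEM::EGR3 gave 720, 332 and 456 counts. Scaled to depth, these were 9.37, 8.04 and 7.45 CPM against 46.4, 44.7 and 50.4 CPM. The libraries of each line lay close together and those of SEM::EGR3 were the higher ones throughout. SEM::mock had a mean of 8.29 ± 0.980 CPM (± SD, 3 libraries, as for all means given) and SEM::EGR3 one of 47.2 ± 2.91 CPM, and the log2 fold change was 2.50 (SE 0.11, adjusted p = 5.40e-16).

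PBX3 (ENSG00000167081, chromosome 9, 125747345 to 125967377, plus strand) was hardly detected in SEM::mock, with 11, 7 and 5 counts, against 1058, 487 and 590 in SEM::EGR3. This corresponds to 1.94, 1.17 and 0.98 CPM against 68.2, 65.6 and 65.2 CPM. The SEM::EGR3 libraries agreed closely, whereas the relative spread among the SEM::mock libraries was wide, and each of these rests on few counts. The mean increased from 1.37 ± 0.510 to 66.4 ± 1.65 CPM, with a log2 fold change of 5.58 (SE 0.15, adjusted p = 2.51e-20). This was the largest fitted change among the members with counts in both lines, and it held rank 491 of 15465 genes ordered from the most increased.

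The other TALE genes were divided in direction. Of 9 listed family members, 7 were tested, 2 of them were upregulated, 4 were downregulated and 1 did not pass the test. The median log2 fold change of the tested genes was -0.52. MEIS3 rose by 1.30 (SE 0.13, adjusted p = 4.46e-09), and PKNOX1, a TALE protein that can pair with PBX proteins, rose by 1.08 (SE 0.12, adjusted p = 2.42e-08).

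MEF2C and RUNX2 are sequence-specific transcription factors. MEF2C (ENSG00000081189, chromosome 5, 88717117 to 88904257, minus strand) is a MADS-box factor used in B cell and myeloid differentiation as well as in muscle. Its counts were 164, 152 and 116 in SEM::mock and 4365, 1936 and 2538 in SEM::EGR3, that is 29.0, 25.5 and 22.8 CPM against 281.5, 260.8 and 280.5 CPM. The gap between the lines was far wider than the spread within either. The mean rose from 25.7 ± 3.13 to 274 ± 11.7 CPM, with a log2 fold change of 3.41 (SE 0.08, adjusted p = 5.45e-22).

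Class IIa histone deacetylases bind MEF2 proteins and repress their targets. Of 7 genes encoding other MEF2 factors or class IIa deacetylases, MEF2B was not in the table, 5 of the remaining 6 were upregulated and 1 was downregulated, with a median log2 fold change of 0.87. The largest increase was that of MEF2D, with a log2 fold change of 1.68 (SE 0.08, adjusted p = 5.55e-15). HDAC5 rose by 1.02 (SE 0.08, adjusted p = 9.00e-11), whereas HDAC7 was lower, with a log2 fold change of -0.47 (SE 0.09).

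RUNX2 (ENSG00000124813, chromosome 6, 45328157 to 45664349, plus strand) is a runt domain factor best known from bone development. SEM::EGR3 gave 2930, 1419 and 1720 counts, and SEM::mock gave 37, 31 and 27. The normalized levels of 6.54, 5.19 and 5.30 CPM in SEM::mock faced 189.0, 191.1 and 190.1 CPM in SEM::EGR3, where the replicates were nearly equal. The mean changed from 5.68 ± 0.749 to 190.1 ± 1.08 CPM, with a log2 fold change of 5.06 (SE 0.09, adjusted p = 1.46e-23).

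RUNX proteins bind DNA with CBFB and recruit corepressors of the ETO family, to which RUNX1T1, CBFA2T2 and CBFA2T3 belong. Of the 6 genes listed as RUNX factors or cofactors beside RUNX2, 3 were upregulated, 2 were downregulated and 1 did not pass the test, with a median log2 fold change of 0.50. RUNX1 rose by 1.35 (SE 0.06, adjusted p = 9.51e-16) and RUNX1T1 by 1.23 (SE 0.09, adjusted p = 9.85e-12). CBFA2T3 fell by 1.40 (SE 0.07, adjusted p = 8.48e-15) and RUNX3 by 1.27 (SE 0.30, adjusted p = 6.75e-04), the latter on 10 to 29 counts in SEM::mock.

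JMJD1C (ENSG00000171988, chromosome 10, 63167221 to 63521850, minus strand) encodes a Jumonji domain protein of the KDM3 family, whose members remove methyl groups from lysine 9 of histone H3. The 3 SEM::mock libraries held 94, 73 and 64 counts of it, those of SEM::EGR3 856, 413 and 473. In CPM these were 16.6, 12.2 and 12.6 against 55.2, 55.6 and 52.3, without overlap. The mean rose from 13.8 ± 2.44 to 54.4 ± 1.83 CPM, a log2 fold change of 1.98 (SE 0.10, adjusted p = 8.39e-15). The other ubiquitous KDM3 genes did not pass the test, with log2 fold changes of 0.05 for KDM3A (SE 0.09) and -0.10 for KDM3B (SE 0.07). HR, the hairless gene, was at least 6.06-fold higher, with 53, 18 and 36 counts against none in SEM::mock.

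CDK6 (ENSG00000105810, chromosome 7, 92604921 to 92836594, minus strand) is the cyclin D-dependent kinase that phosphorylates RB1 and dominates over CDK4 in many leukemias. Its counts of 776, 907 and 683 in SEM::mock compared with 5304, 2178 and 2931 in SEM::EGR3, corresponding to 137, 152 and 134 CPM against 342, 293 and 324 CPM. SEM::EGR3 was higher in each library, but the ratio of the means was only 2.27. The mean was 141 ± 9.59 CPM in SEM::mock and 320 ± 24.6 CPM in SEM::EGR3, with a log2 fold change of 1.18 (SE 0.06, adjusted p = 2.44e-14).

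Cyclins that activate CDK6 did not rise with it. Of 9 listed partners, 8 were tested, of which 3 were upregulated, 4 were downregulated and 1 did not pass the test, with a median log2 fold change of 0.08. CCND1, encoding cyclin D1, fell by 2.03 (SE 0.07, adjusted p = 1.08e-18), and CCND2, CCND3 and CDK4 were lower by 0.19 to 0.51 on the log2 scale. CDKN2C, which encodes an inhibitor of CDK6, rose by 1.89 (SE 0.09, adjusted p = 4.37e-15). CDKN2A, which encodes the inhibitor p16INK4a and also p14ARF, was at least 280-fold higher, with 2356, 1127 and 1357 counts against none in SEM::mock. MTAP, a neighbour of CDKN2A, was likewise near 0 in SEM::mock, with a mean of 0.065 ± 0.113 CPM against 24.2 ± 0.497 CPM in SEM::EGR3. The neighbour CDKN2B had no count in SEM::mock, but only 9, 4 and 5 counts in SEM::EGR3. It did not pass the filter on low counts and shows no clear contrast. Whether this region is present in the cells of SEM::mock was not tested.

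ZEB2 (ENSG00000169554, chromosome 2, 144364364 to 144524583, minus strand), a zinc finger homeobox repressor required in early hematopoiesis, showed the smallest difference. SEM::mock gave 261, 209 and 240 counts and SEM::EGR3 751, 360 and 476, which became 46.1, 35.0 and 47.1 CPM and 48.4, 48.5 and 52.6 CPM after scaling. Replicate 2 of SEM::mock was the low one, and the highest SEM::mock library almost reached the lowest of SEM::EGR3. The means were 42.7 ± 6.71 and 49.9 ± 2.39 CPM, with a log2 fold change of 0.23 (SE 0.09, 95% interval 0.05 to 0.40, adjusted p = 0.0280). The call was lost without SEM::mock replicate 2 (log2 fold change 0.08, adjusted p = 0.407), without SEM::EGR3 replicate 3 (0.19, adjusted p = 0.0956) and with DESeq2 (0.22, adjusted p = 0.0755).

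ZEB and SNAI proteins repress epithelial genes, and ZEB proteins do so with the corepressors CTBP1 and CTBP2. Of 8 listed relatives and cofactors, 6 were tested, 5 were upregulated and 1 was downregulated, with a median log2 fold change of 1.10. SNAI3 rose by 3.99 (SE 0.31, adjusted p = 3.47e-11) from at most 4 counts in SEM::mock. CTBP2 rose by 2.18 (SE 0.12, adjusted p = 5.17e-14) and TWIST1 by 1.51 (SE 0.07, adjusted p = 3.09e-16), whereas ZEB1 was lower, with a log2 fold change of -0.99 (SE 0.17).

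LAMP5 (ENSG00000125869, chromosome 20, 9514358 to 9530524, plus strand) encodes a lysosome-associated membrane glycoprotein of neurons and plasmacytoid dendritic cells. It was without counts in all 3 SEM::mock libraries, and SEM::EGR3 gave 45, 18 and 34, or 2.90, 2.43 and 3.76 CPM. It was the member with the fewest counts in SEM::EGR3. Set against the limit of 3 counts per library in SEM::mock, the mean of 3.03 ± 0.675 CPM was at least 5.61-fold higher (adjusted p = 4.47e-08), a bound that covers counting error only. The 4 relatives went in different directions, with LAMP3 upregulated, LAMP2 and CD68 downregulated and LAMP1 not passing the test. The largest of these changes was that of CD68, with a log2 fold change of -0.96 (SE 0.10, adjusted p = 1.12e-08), and the median was -0.48.

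**Figure D3:**
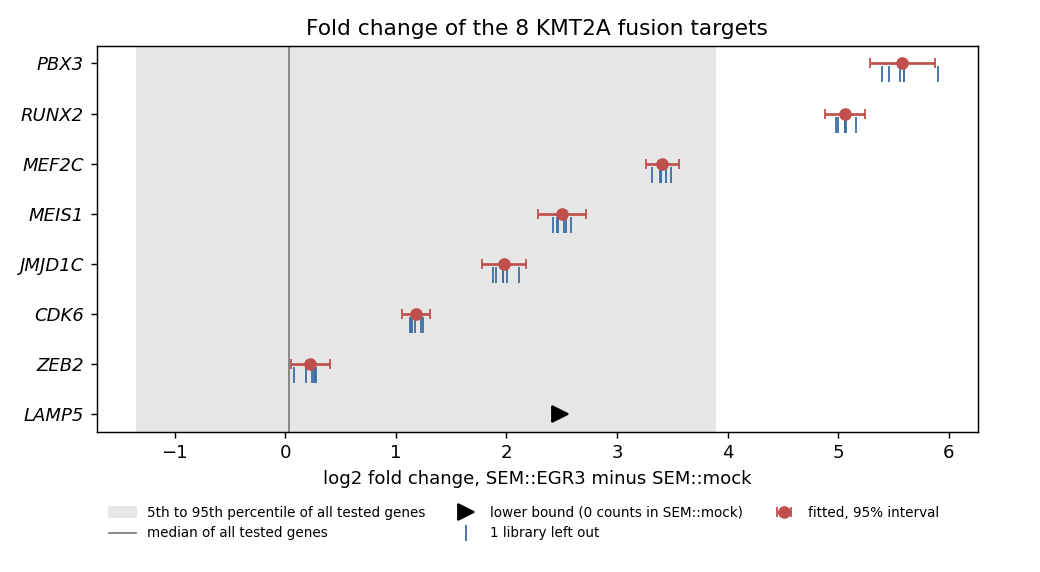
Fitted log2 fold change of each fusion target, SEM::EGR3 minus SEM::mock, with its 95% interval; ticks below each point leave out 1 library, the triangle is the lower bound of LAMP5, the grey band spans the 5th to 95th percentile of all tested genes and the line is their median. The order runs from PBX3 at 5.58 down to ZEB2 at 0.23, and PBX3 and RUNX2 lie beyond the band.

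Ordered by log2 fold change, the members with counts in both lines ran PBX3, RUNX2, MEF2C, MEIS1, JMJD1C, CDK6 and ZEB2. Neighbours in this order were described through the ratio of their counts within each library, which no scaling between libraries can move. The order was set from the same counts, so the direction of each step was fixed and no test was made, but the spread can be read. The ratios of SEM::EGR3 and SEM::mock libraries did not overlap in any of the 6 neighbouring pairs. The narrowest step was that of MEIS1 over JMJD1C, with a difference of 0.52 on the log2 scale (SE 0.10). The step of PBX3 over RUNX2 was 0.59 (SE 0.20) and rests on the 5 to 11 counts of PBX3 per SEM::mock library. LAMP5 has only a lower bound and could not be placed in the order.

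Each member was also set against its homologs within each library, where all 6 libraries had more than 3 counts of both genes, a comparison added after the values were seen. In 11 of 11 pairs examined, the lowest SEM::EGR3 ratio of member to homolog exceeded the highest SEM::mock ratio. Since each member was already higher in all SEM::EGR3 libraries, this direction was largely fixed in advance. The share among other gene pairs was not examined, so the ratios are a description. There was 0.69 to 0.84 of a MEIS1 count per MEIS2 count in SEM::mock and 5.90 to 6.71 in SEM::EGR3. RUNX2 counts were 0.083 to 0.108 per RUNX1 count in SEM::mock and 1.17 to 1.25 in SEM::EGR3, a 13.2-fold higher ratio although RUNX1 rose as well. The lowest and highest folds of these ratios were 2.31 for MEIS1 over MEIS3 and 96.8 for PBX3 over PBX2, the latter on 9 to 56 counts of PBX2 per library. For ZEB2 over ZEB1 the ratio ran from 2.38 to 4.36 in SEM::mock and from 7.21 to 9.73 in SEM::EGR3, with ZEB1 itself lower in SEM::EGR3. The exact permutation p was 0.1 for each pair, also after adjustment over the 11.

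**Figure D4:**
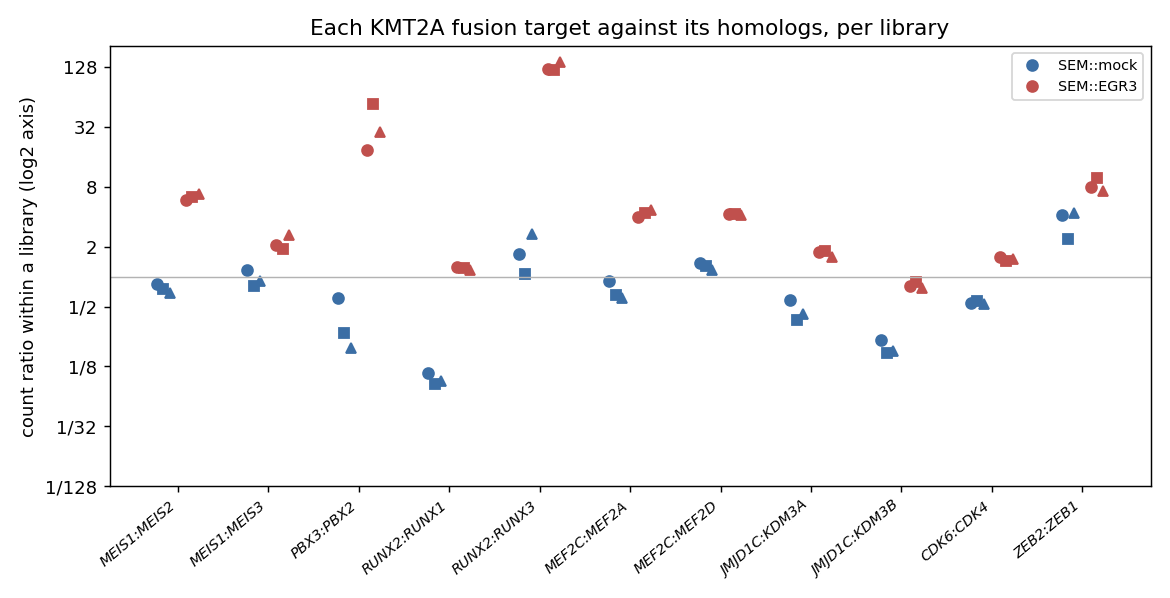
Count ratio of each fusion target to its homologs within each library, on a log2 axis, with the symbol giving the replicate. In each of the 11 pairs the SEM::EGR3 libraries lie above the SEM::mock libraries, from a 2.31-fold step for MEIS1:MEIS3 to a 96.8-fold step for PBX3:PBX2. The members were already higher in SEM::EGR3, which largely set this direction in advance.

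Further genes bound by KMT2A fusions in leukemia were divided. Of 18 such genes, 16 were tested, of which 10 were upregulated, 5 were downregulated and 1 did not pass the test, and the median log2 fold change was 1.81. PROM1, encoding the stem cell antigen CD133, was at least 300-fold higher, with 0, 0 and 1 count in SEM::mock against 2586, 1209 and 1418. FLT3, a receptor tyrosine kinase, went from 1, 0 and 4 counts in SEM::mock to 4998, 2285 and 2961. CSPG4, which encodes the NG2 antigen of KMT2A-rearranged blasts, was at least 44.1-fold higher. CPEB2, a translational regulator that binds mRNA, was at least 52.5-fold higher. In the other direction, the proto-oncogene MYB fell by 1.04 (SE 0.06, adjusted p = 2.18e-13) and LMO2, an adaptor of hematopoietic transcription factor complexes, by 1.77 (SE 0.08, adjusted p = 5.28e-16).

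KMT2A and AFF1 themselves had log2 fold changes of -0.08 (SE 0.08) and -0.07 (SE 0.08) and did not pass the test. The 3′ end of AFF1 is shared by AFF1 and KMT2A::AFF1. That of KMT2A is shared by KMT2A and the reciprocal fusion AFF1::KMT2A, and does not report KMT2A::AFF1. Whether KMT2A::AFF1 transcripts are present in the libraries of either line was not tested. Among the 14 genes of the fusion partners and cofactors, 4 were upregulated, 6 downregulated and 4 did not pass the test, with a median of -0.07. The largest change was that of MLLT3, encoding the AF9 protein of the elongation machinery, which fell by 2.13 (SE 0.15, adjusted p = 3.14e-12).

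**Figure D5:**
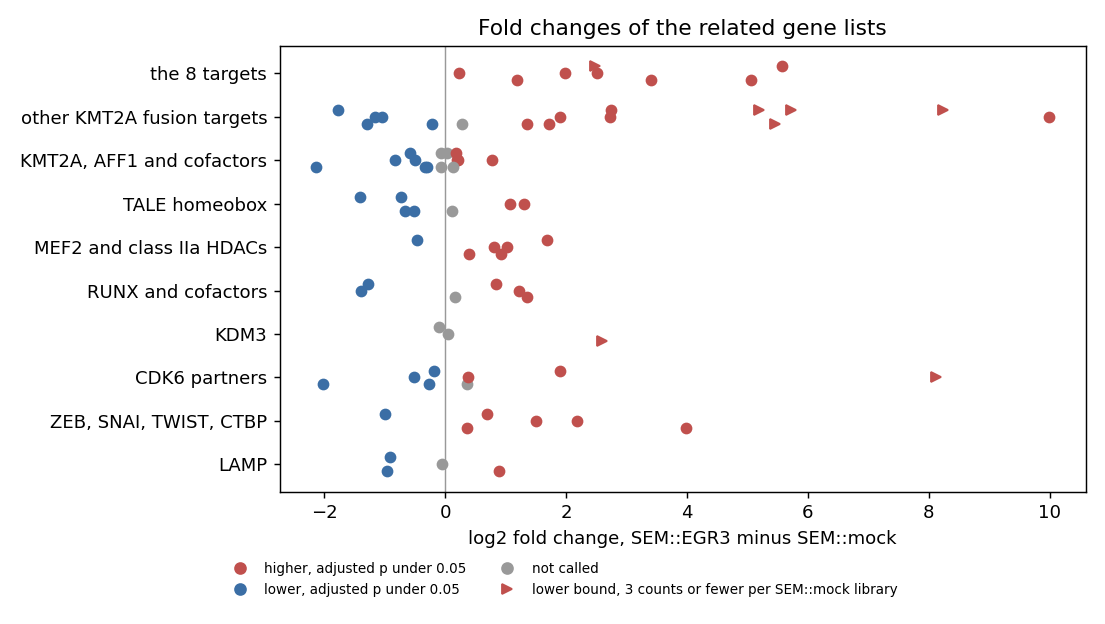
Log2 fold change of each tested gene of the 8 fusion targets and of the 9 related lists, SEM::EGR3 minus SEM::mock; colour gives the call and triangles are lower bounds of genes with at most 3 counts in each SEM::mock library. The 8 targets lie to the right of 0, while the other KMT2A fusion targets, with 10 higher and 5 lower, and the remaining lists lie on both sides of it.

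Genes on the opposite strand that overlap the members were examined as well, since the strand setting of the counting is not given in the sources used here and reads of overlapping genes may then be exchanged. By the positions of GENCODE release 29, 16 genes of the count table overlap a member in this way. Of these, 9 were tested and 7 were upregulated, 1 was downregulated and 1 did not pass the test. CDK6-AS1, which shares 112 bases with CDK6 at its start, went from 15, 8 and 21 counts in SEM::mock to 1024, 480 and 580, a log2 fold change of 4.62 (SE 0.15, adjusted p = 1.14e-18). JMJD1C-AS1 rose by 3.67 (SE 0.20) and the protein-coding REEP3, which shares 488 bases with the head of JMJD1C, by 3.91 (SE 0.07). MEF2C-AS1 and MEF2C-AS2 rose by 2.49 (SE 0.38) and 2.22 (SE 0.39). In the RUNX2 locus AL096865.1 rose by 2.59 (SE 0.17), whereas SUPT3H, which overlaps the first part of RUNX2, had a log2 fold change of -0.26 (SE 0.11). These genes and this measure were chosen after the positions were read, and their part in the members' counts was not tested.

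Promoter sequences are shown for the members whose windows hold a match to the motif of EGR proteins or of RUNX proteins, since EGR3 was overexpressed and RUNX2 and RUNX1 rose. RefSeq start sites (GRCh38.p14) gave 18 windows of 300 bases for the 8 members, each from 250 bases before a start to 50 after it, 5′ to 3′ on the strand of the gene. The EGR motif GCGNGGGCG, searched on both strands, was found in 2 of these 18 windows and in 9.43% of all 35116 windows. The RUNX motif TGTGGT was found in 3 of 18, against 13.1% of all windows. A MEF2 motif (CTA and TAG with any 4 bases between, 2.73% of all windows) and the PBX-HOX motif TGATTNAT (2.82%) were in none of the 18. The windows with a match are those of CDK6 at chr7:92836524-92836823, JMJD1C at chr10:63465928-63466227, MEIS1 at chr2:66434875-66435174 and RUNX2 at chr6:45328080-45328379, with capitals marking the match to EGR in the first pair and to RUNX in the others. The JMJD1C window lies within JMJD1C-AS1. A further JMJD1C window at chr10:63521841-63522140 holds 1 RUNX match.
CDK6: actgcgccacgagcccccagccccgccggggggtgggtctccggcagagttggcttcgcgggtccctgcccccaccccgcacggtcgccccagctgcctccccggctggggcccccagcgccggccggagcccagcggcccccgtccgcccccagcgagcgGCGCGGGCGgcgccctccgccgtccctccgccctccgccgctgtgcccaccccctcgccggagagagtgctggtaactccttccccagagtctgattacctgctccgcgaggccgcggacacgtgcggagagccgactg
JMJD1C: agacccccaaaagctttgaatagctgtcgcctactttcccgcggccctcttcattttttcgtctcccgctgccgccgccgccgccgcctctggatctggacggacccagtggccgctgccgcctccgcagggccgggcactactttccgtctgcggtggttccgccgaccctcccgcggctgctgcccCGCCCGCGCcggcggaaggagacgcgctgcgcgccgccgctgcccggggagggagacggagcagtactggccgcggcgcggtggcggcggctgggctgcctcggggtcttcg
MEIS1: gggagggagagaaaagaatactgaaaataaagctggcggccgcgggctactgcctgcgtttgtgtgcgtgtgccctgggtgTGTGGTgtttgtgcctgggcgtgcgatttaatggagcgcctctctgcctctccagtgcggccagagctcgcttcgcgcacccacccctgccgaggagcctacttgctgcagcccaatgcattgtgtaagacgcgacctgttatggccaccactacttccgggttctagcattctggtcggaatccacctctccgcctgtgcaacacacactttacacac
RUNX2: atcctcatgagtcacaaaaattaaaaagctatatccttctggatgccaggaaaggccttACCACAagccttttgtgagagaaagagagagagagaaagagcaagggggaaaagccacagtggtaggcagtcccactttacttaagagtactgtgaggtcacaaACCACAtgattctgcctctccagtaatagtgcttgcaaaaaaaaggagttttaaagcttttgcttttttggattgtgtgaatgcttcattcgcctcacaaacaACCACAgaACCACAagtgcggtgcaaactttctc
The upstream RUNX2 window holds 4 RUNX matches, all read as ACCACA on the strand of the gene, and 5 of the 35116 windows (0.0142%) hold 4 or more. This limit was taken from the window itself, which was picked among 18 windows and 4 motifs. The share is therefore not the probability of finding such a window among the members. RUNX2 rose by 5.06 on the log2 scale in the counts, MEIS1 by 2.50, JMJD1C by 1.98 and CDK6 by 1.18, while PBX3, with the largest fitted change, had no match to any of the 4 motifs in its window. A match is a run of letters and not evidence of binding, and binding was not measured in these libraries.

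For each member, the tested genes with the most similar profile over the 6 libraries were found by the Euclidean distance between centred log2(CPM + 0.5) values, a measure in which scarce genes appear closer in fold than they are. SOX4, a transcription factor of lymphoid progenitors, was nearest to MEF2C (distance 0.107, log2 fold change 3.45), followed by CEBPA and TBC1D8. KIAA0930 was nearest to MEIS1 (0.206, log2 fold change 2.51), ahead of AP003774.2 and ZNF836. PBX3 was closest to TNFRSF4, PTPRVP and PAN3, and RUNX2 to ZNF528-AS1, AIF1L and the B cell antigen CD22. JMJD1C was closest to REC8, the DNA methyltransferase gene DNMT3A and AC020658.5, with a log2 fold change of 2.02 for DNMT3A. CDK6 was closest to RUNX1T1, CSRP2 and IFIT3, ZEB2 to IFT80, ZBED4 and MED11, and LAMP5 to CPA1, CST6 and HR.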

How the data were processed

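Raw MACE-Seq counts per gene, whole numbers for each library, were deposited by the authors. bcl2fastq, Bowtie2, HTSeq and GRCh38 are named in the submitters' processing notes, while versions, annotation, strand setting and use of molecular identifiers are not given in the sources used here. The column headings spell ERG3 and were read as EGR3, since no other overexpressing line is named. The table also holds 12 normalized per-sample columns, group means and the authors' own fold changes and p-values, which were not used.

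The counts were passed to edgeR 4.0.16 under R 4.3.3. After filterByExpr and TMM scaling, the lines were compared by glmQLFit and glmQLFTest over all 6 libraries with the line as the only term. P-values were adjusted by Benjamini-Hochberg over 15465 tested genes of 35410. The SE was taken as the log2 fold change divided by the root of F. CPM are counts per 1000000 TMM-scaled counts of the listed genes. A gene with at most 3 counts in each library of a line counts as undetected there, and the fold given is a lower bound for counting error only. P-values measure the spread between 3 replicates per line, which differed by more than counting noise (chi-square per degree of freedom 1.64 to 2.89). Scripts were tested on simulated data.

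The members and gene lists were chosen with earlier results of these data known. All members were named, together with EGR3, the 3 most abundant genes of each marker list and the 3 nearest profiles of each member. Of each related list, up to 4 genes of largest absolute log2 fold change were named, among called genes with at least 1 and no overlap of libraries, and otherwise the gene of largest change. Genes named beyond this rule were chosen after their values were seen, and values of 1 gene under the rule are not reported here. Gene positions are those of GENCODE release 29 on GRCh38 (34339 of 35410 identifiers matched), and promoter windows from RefSeq (GRCh38.p14), which matched 8 of 8 members. Alternatives were DESeq2 1.42.0, library sizes without factors, upper-quartile factors, a block for the replicate number, no filter, a filter at 10 counts in every library, a log2 fold change of at least 1 and each library left out in turn.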

Additional observations from a re-analysis of the deposited data

How the results depend on the processing

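MEIS1, PBX3, MEF2C, RUNX2, JMJD1C, CDK6 and LAMP5 kept their direction and call in each alternative in which they were tested. Their log2 fold changes ranged from 2.42 to 2.58 for MEIS1, 5.40 to 5.90 for PBX3, 3.32 to 3.49 for MEF2C, 4.98 to 5.16 for RUNX2, 1.88 to 2.12 for JMJD1C and 1.13 to 1.26 for CDK6. The fitted value of LAMP5, which depends on the prior count and is no bound, ran from 6.52 to 7.75. PBX3 and LAMP5 gave no value with at least 10 counts in every library. With a log2 fold change of at least 1 required, 7 members were called, without ZEB2. ZEB2 lost its call with DESeq2 (0.22, adjusted p = 0.0755). With 1 library left out, ZEB2 ranged from 0.0825 (without SEM::mock replicate 2, adjusted p = 0.407) to 0.28, and was 0.19 without SEM::EGR3 replicate 3 (adjusted p = 0.0956). The cause was not tested.

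The replicate numbers are shared between the lines, but same-numbered libraries did not deviate together (correlations of -0.246, -0.176 and -0.072 over 10144 genes), and no same-numbered pair of libraries correlated best with each other. With the replicate block, 10081 genes were called in place of 10594, and 8 members were called higher. Under the replicate block the log2 fold changes were 2.50 for MEIS1, 5.58 for PBX3, 3.41 for MEF2C, 5.06 for RUNX2, 1.98 for JMJD1C, 1.18 for CDK6 and 0.22 for ZEB2 (adjusted p = 0.0370).

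Without TMM factors the median log2 fold change of all tested genes was 0.11 in place of 0.03. At 3 replicates per line, an exact permutation test of a single gene cannot go below 0.1. PBX3 and LAMP5 had few or no counts in each SEM::mock library, the shallowest of which held 5286115 counts.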
